A study of Arabidopsis thaliana with 16 samples.

Results

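Genes for plastid redox proteins and for subunits of the plastid chaperonin were compared between the Arabidopsis thaliana mutant gun1 and wild type. The members are the probes that list exactly 1 gene in the platform's gene table, where that gene is AT3G52960, NTRC, CCS, Cpn60beta3 or Cpn60beta4. Each gene had 1 such probe, so 5 of the 3439 probes on the array were used, 3 for redox genes and 2 for chaperonin genes. The genes were chosen with their differences between gun1 and WT already known, so these differences are given as a description, with no p-value. The study measured total RNA in 8 samples of gun1, the gun1-1 mutant in the ecotype Columbia 0, described by its submitters as impaired in plastid signaling, and in 8 samples of WT, the same ecotype. Both groups were numbered 1 to 8, no treatment is named for either, and the mutant is represented by a single allele. The labels name neither tissue nor age nor growth conditions, so no tissue could be checked against its markers. Whether each number stands for a separate plant or culture is not stated either, and the spread between samples, with the p-values that rest on it, may be technical.

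Plastids fold and protect their proteins under conditions that change with light. Photosynthesis produces superoxide and hydrogen peroxide, which superoxide dismutases and peroxiredoxins remove, and thioredoxin systems pass electrons to the cysteines of peroxiredoxins and of light-regulated enzymes. Proteins made in or imported into the plastid are folded in part by a chaperonin, a barrel built from Cpn60 alpha and beta subunits, best known for its part in folding Rubisco. GUN1, the protein affected in the mutant, resides in plastids, carries pentatricopeptide repeats and takes part in retrograde signaling to the nucleus, where the 5 genes described here are encoded.

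The values are intensities on a scale from 0 to 100 in each sample, so that a level of 1 is 1% of the sample's highest value. The medians of the deposited columns ran from 0.216 to 0.259 in gun1 and from 0.130 to 0.157 in WT, and 193 to 274 probes in gun1 and 250 to 451 in WT were at 0. Levels below are quantile normalized, and any value under 0.0313 was raised to that floor. Numbers 7 and 8 of both genotypes lay apart from the rest on principal component 2, which carried 13.5% of the variance. With numbers 7 and 8 left out of both genotypes, the log2 difference gun1 minus WT was 0.99 for AT3G52960, -0.26 for NTRC, -0.39 for CCS, -0.96 for Cpn60beta3 and -0.43 for Cpn60beta4. Consecutive numbers of a genotype (1 and 2, 3 and 4, and so on) were correlated, at 0.365 over all tested probes. Averaging them gave an SE of 0.29 in place of 0.22 for AT3G52960 and of 0.22 in place of 0.17 for NTRC. It was 0.39 in place of 0.33 for CCS and 0.44 in place of 0.35 for Cpn60beta3. Only for Cpn60beta4 was it not larger, at 0.29 in place of 0.30. SEs and p-values from the main fit treat the 8 samples of a genotype as separate, so they may be too small. No probe names GUN1 (AT2G31400) alone, so the labels were not checked on the mutated gene. The intensity of a probe depends on its own hybridization, so levels are compared between genotypes and never between genes.

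The peroxiredoxin gene AT3G52960 was higher in gun1, while the other 4 genes had negative differences of varying size. Of the 5 genes, AT3G52960 alone passed the threshold of the fit over all probes, an adjusted p-value of 0.05 in limma, where 31.8% of the 3419 tested probes passed it, 16.6% higher and 15.2% lower in gun1. Since the choice of genes used this contrast, nothing is read from that count. From the top, the log2 differences followed the order AT3G52960, NTRC, CCS, Cpn60beta4 and Cpn60beta3. In bulk RNA, fewer cells that express a gene and less RNA per cell cannot be told apart.

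**Figure D1:**
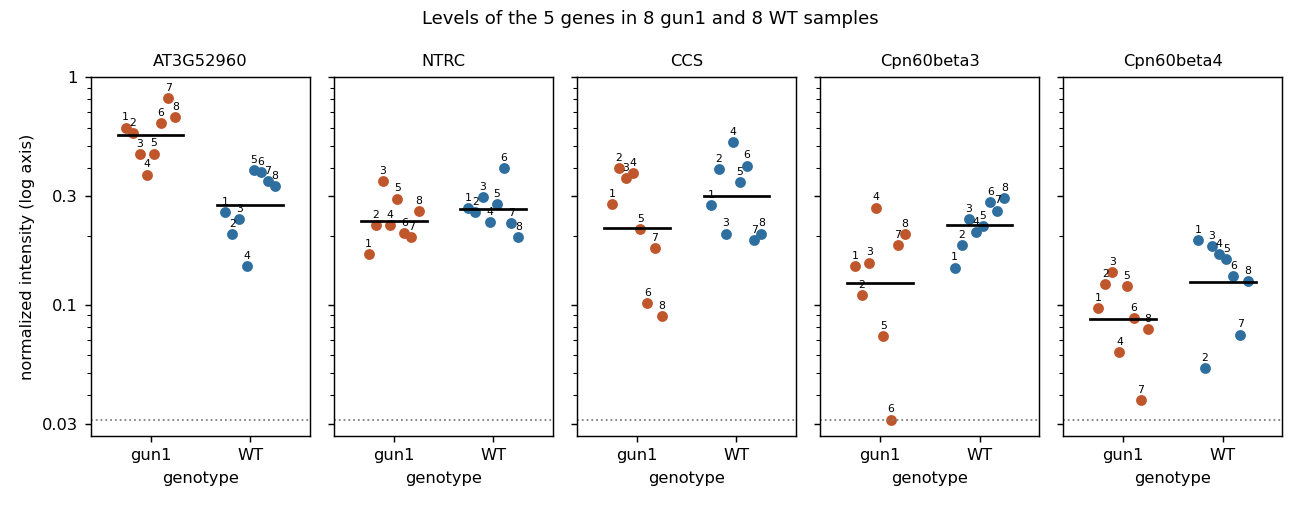
Quantile-normalized intensity (log axis, scale of 0 to 100) of the 5 genes in 8 gun1 and 8 WT samples. Each point is 1 sample with its number, the bar is the geometric mean of 8 samples and the dotted line is the floor of 0.0313. For AT3G52960, 7 of 8 gun1 samples lie above every WT sample, and the genotypes overlap more in the other 4 genes.

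AT3G52960 encodes a plastid peroxiredoxin, an enzyme that reduces peroxides through a catalytic cysteine. Its level ran from 0.374 through a median of 0.584 to 0.808 in gun1, against 0.148, 0.294 and 0.392 in WT. The genotypes touched at their edges: gun1 replicate 4 was the lowest mutant sample, at 0.374, below WT replicate 5 at 0.392 and WT replicate 6 at 0.384. The mean was 0.571 ± 0.138 in gun1 and 0.288 ± 0.0895 in WT (SD, n = 8 each), a log2 difference of 1.02 with an SE of 0.22, or 2.03-fold higher in gun1. The gene was higher in gun1 in 8 of 8 numbers, a pattern that 12.7% of all tested probes shared. The smallest of these differences was 0.24, in number 5, and the largest 1.47, in number 2. The WT levels differed by number. WT numbers 1 to 4 had levels of 0.255, 0.205, 0.237 and 0.148, all below the levels of 0.392, 0.384, 0.349 and 0.333 in WT numbers 5 to 8. In the mutant the low samples were instead numbers 3, 4 and 5, at 0.461, 0.374 and 0.462, and number 7 was the highest.

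As deposited, before the normalization applied here, AT3G52960 did not overlap between the genotypes. The medians of the deposited columns were themselves higher in gun1, at 0.216 to 0.259 against 0.130 to 0.157 in WT. The deposited values ran from 0.407 to 0.901 in gun1 and from 0.0980 to 0.313 in WT, and 12.0% of the tested probes were likewise higher in every gun1 sample than in any WT sample. Of all tested probes, 9.36% had a larger log2 difference than AT3G52960 after quantile normalization.

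NTRC joins an NADPH-dependent thioredoxin reductase and a thioredoxin in 1 protein, and is known as a reductant of plastid 2-Cys peroxiredoxins. Its level ran from 0.168 through a median of 0.224 to 0.349 in gun1, against 0.198, 0.261 and 0.398 in WT. The ranges overlapped almost completely, and a single gun1 sample, number 1 at 0.168, lay below all WT samples. The mean was 0.240 ± 0.0582 in gun1 and 0.269 ± 0.0608 in WT (SD, n = 8 each), with a log2 difference of -0.17 and an SE of 0.17. Without WT replicate 6 the log2 difference was -0.089, and without gun1 replicate 1 it was -0.105. Number by number, NTRC was lower in gun1 in 5 and higher in 3, from -0.95 in number 6 to 0.38 in number 8. The value of number 6 came with the highest WT level of the gene, 0.398, where gun1 replicate 6 had 0.206. NTRC was the steadiest of the 5 genes: 20.7% of the tested probes had a smaller standard error.

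CCS is the copper chaperone that delivers copper to the copper/zinc superoxide dismutases. It varied widely within both genotypes, from 0.0895 through a median of 0.246 to 0.398 in gun1, against 0.192, 0.310 and 0.520 in WT. In the mutant the level was split by number. Numbers 1 to 4 had 0.276, 0.398, 0.359 and 0.377, and all 4 lay above numbers 5 to 8, at 0.215, 0.102, 0.178 and 0.0895. In WT the low samples were numbers 3, 7 and 8, at 0.205, 0.192 and 0.205, and number 4 was the highest. The mean was 0.249 ± 0.122 in gun1 and 0.318 ± 0.119 in WT (SD, n = 8 each), with a log2 difference of -0.45 and an SE of 0.33. Differences by number ran from -2.01 in number 6 to 0.81 in number 3, with 5 below and 3 above 0, and those of numbers 1 and 2 were 0.01 and 0.02. Leaving out gun1 replicate 8, the lowest sample, changed the log2 difference to -0.27, and leaving out gun1 replicate 6 changed it to -0.296.

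**Figure D2:**
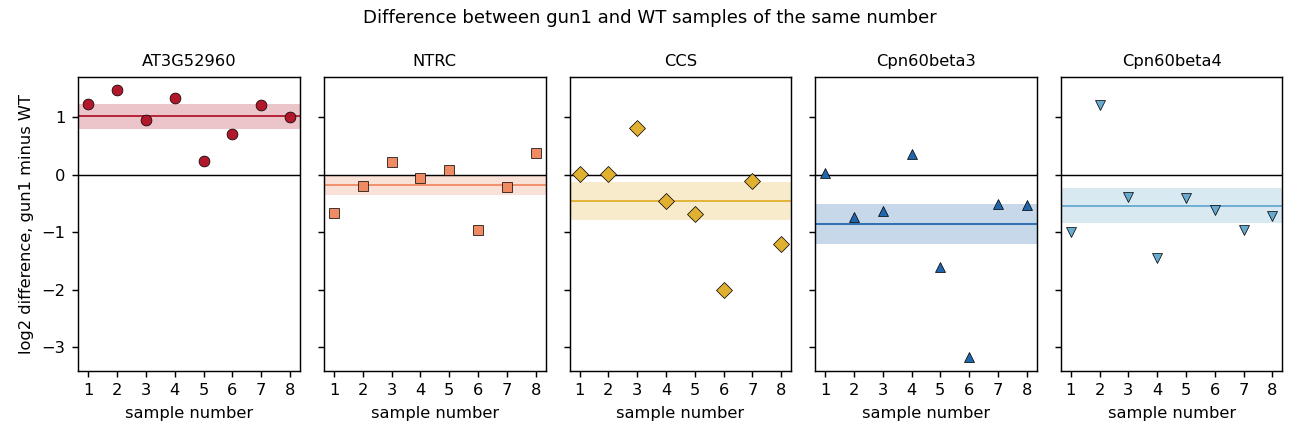
Log2 difference gun1 minus WT (y axis) between samples of the same number (x axis, 1 to 8) for each of the 5 genes. The line is the mean difference and the band is the mean ± 1 SE of the limma fit. AT3G52960 is above 0 in 8 of 8 numbers, and Cpn60beta3 reaches -3.17 in number 6.

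Cpn60beta3 and Cpn60beta4 are beta subunits of the plastid chaperonin. Both had lower mean levels in gun1, but neither passed the threshold. Cpn60beta3 ran from the floor of 0.0313 through a median of 0.151 to 0.267 in gun1, against 0.146, 0.230 and 0.295 in WT. The mutant samples spread more than the wild type. Gun1 replicate 6 was deposited at 0 and therefore stands at the floor, gun1 replicate 5 was next at 0.0728, and with gun1 replicate 2, at 0.110, 3 mutant samples lay below the lowest WT sample. The SD of the log2 level was 0.99 in gun1 and 0.34 in WT, and that of gun1 includes the sample set to the floor. The mean level was 0.146 ± 0.0750 in gun1 and 0.229 ± 0.0503 in WT (SD, n = 8 each), with a log2 difference of -0.85 and an SE of 0.35, or 1.80-fold higher in WT. The size rests in part on number 6, where the difference was -3.17. Without gun1 replicate 6 the log2 difference was -0.57, and with the floor at the 1st and at the 20th percentile of the positive values it was -1.09 and -0.62. Over the numbers, 6 were lower in gun1, and the 2 higher ones were number 1 at 0.03 and number 4 at 0.36.

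Cpn60beta4 is known in Arabidopsis for its part in folding NdhH, a subunit of the chloroplast NDH complex. Its levels lay near the floor, from 0.0381 through a median of 0.0922 to 0.139 in gun1, against 0.0529, 0.146 and 0.192 in WT. No mutant sample reached the levels of 0.192, 0.181, 0.168 and 0.159 found in WT replicates 1, 3, 4 and 5. The low WT samples were replicates 2 and 7, at 0.0529 and 0.0740, and the lowest of all was gun1 replicate 7. The mean was 0.0931 ± 0.0339 in gun1 and 0.136 ± 0.0501 in WT (SD, n = 8 each), with a log2 difference of -0.53 and an SE of 0.30. Cpn60beta4 was lower in gun1 in 7 of 8 numbers. The exception was number 2, at 1.22, where the low WT sample stood. Without WT replicate 2 the log2 difference was -0.71, and without gun1 replicate 7 it was -0.36.

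**Figure D3:**
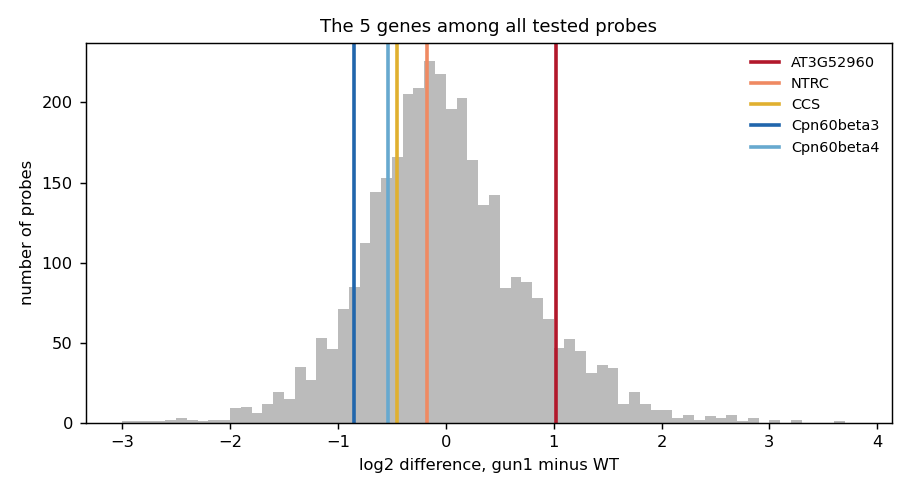
Histogram of the log2 difference gun1 minus WT over the 3419 tested probes (x axis, log2 difference; y axis, number of probes), with a vertical line for each of the 5 genes. AT3G52960 is in the right tail at 1.02, NTRC near the centre at -0.17 and Cpn60beta3 farthest to the left at -0.85.

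Set against all probes, the chaperonin genes were in the lower part of the distribution without being at its edge. Of the tested probes, 10.6% had a lower log2 difference than Cpn60beta3, 22.3% a lower one than Cpn60beta4, 25.9% a lower one than CCS and 42.3% a lower one than NTRC. The median over all probes was -0.05. Standard errors were larger than those of most probes for 3 genes, with 73.1% of probes more precise than Cpn60beta3, 69.2% more precise than CCS and 60.7% more precise than Cpn60beta4, and smaller than most for AT3G52960, where the share was 36.4%.

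The redox genes were then set against the chaperonins. For each number, the mean log2 difference gun1 minus WT of the 3 redox genes was reduced by that of the 2 chaperonin genes. The result was above 0 in 8 of 8 numbers, from 0.19 in number 2 to 1.17 in number 3, with a mean of 0.82 ± 0.32 (SD over 8 numbers). The redox genes averaged 0.13 ± 0.43 and the chaperonins -0.69 ± 0.60. AT3G52960 contributed much of the gap. With NTRC and CCS alone as redox genes it was 0.38 ± 0.41 and above 0 in 7 of 8 numbers. Since the same contrast was known when the genes were chosen, this is a description and was not tested.

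The direction of 3 of the 5 differences depended on how the samples were scaled. Without scaling, the log2 difference was 0.44 for NTRC, 0.11 for CCS and 0.38 for Cpn60beta4, but the median of all probes was then 0.41. Relative to that median, NTRC stood at 0.03, CCS at -0.30, Cpn60beta4 at -0.03, Cpn60beta3 at -0.61 and AT3G52960 at 1.02. With a common median for all samples, where the median of all probes was -0.18, the log2 differences were 0.71 for AT3G52960, -0.29 for NTRC, -0.62 for CCS, -0.89 for Cpn60beta3 and -0.35 for Cpn60beta4. AT3G52960 was higher and Cpn60beta3 lower in gun1 under quantile normalization, no scaling, a common median and cyclic loess alike. Without scaling, however, the log2 difference of Cpn60beta3 was -0.20, smaller than its SE of 0.41. It includes gun1 replicate 6, deposited at 0 and raised to the floor. The deposited mean of Cpn60beta3 was 0.182 in gun1 and 0.179 in WT, so its direction is not secure without scaling. NTRC also passed the threshold without scaling, as higher in gun1, and Cpn60beta3 passed it as lower in gun1 under cyclic loess, with the floor at the 20th percentile and without gun1 replicate 4, its highest mutant sample.

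**Figure D4:**
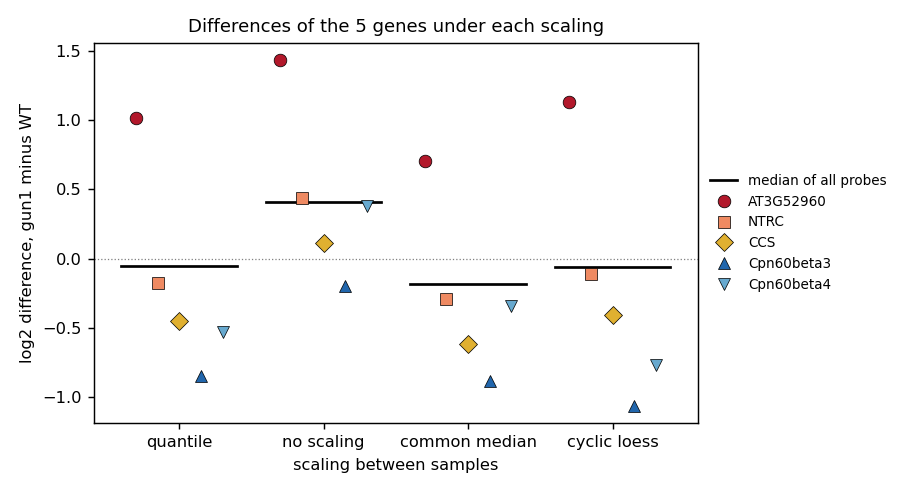
Log2 difference gun1 minus WT (y axis) of the 5 genes under 4 scalings of the samples (x axis), with the median of all tested probes as a black line. AT3G52960 lies above the line in all 4 scalings, from 0.71 to 1.44, and Cpn60beta3 below it, while NTRC and Cpn60beta4 are close to it without scaling, where the line is at 0.41.

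Other genes of the same processes were looked up from lists of 135 loci and from name patterns. The lists were chosen with earlier results of these data known, so the p-values of listed genes may not be independent of that choice. Apart from the 5 genes, 4 listed genes had a probe naming that gene alone. Of these, 1 fell in gun1, 0 rose and 3 did not pass the threshold, where 31.8% of all tested probes passed it and 15.2% were called lower in gun1. Of the 22 loci for chaperonins and cochaperonins none but Cpn60beta3 and Cpn60beta4 was measured in this way. AT5G55220, from the list of other plastid chaperones, import and proteases, ran from the floor of 0.0313 through a median of 0.0777 to 0.121 in gun1, against 0.0886, 0.153 and 0.291 in WT. After normalization, the fall was seen in 8 of 8 numbers, as it was for 12.3% of all tested probes. By the same levels, 6 of the 8 mutant samples lay below every WT sample. The deposited values overlapped more, from 0.0135 to 0.147 in gun1 and from 0.0707 to 0.213 in WT. As deposited, gun1 was higher than WT in numbers 2, 3 and 6. The normalized mean was 0.0740 ± 0.0334 in gun1 and 0.162 ± 0.0668 in WT (SD, n = 8 each), with a log2 difference of -1.18 (SE 0.32, adjusted p = 0.00926 in limma). The mutant samples at the floor were replicates 7 and 8, and the log2 difference was -1.42 with the floor at the 1st percentile and -0.64 with it at the 20th. With numbers 7 and 8 left out of both genotypes the log2 difference was -0.84 (adjusted p = 0.0446 in limma). The call was lost without scaling, at a log2 difference of -0.34 (adjusted p = 0.451 in limma), and with consecutive numbers averaged into 4 samples per genotype, where the log2 difference was the same -1.18 (adjusted p = 0.0543 in limma). Over the 27 alternatives its adjusted p ran from 0.00590 to 0.451.

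SRX, the sulfiredoxin that restores overoxidized 2-Cys peroxiredoxins, was among the 3 genes that did not pass. It had a mean of 0.247 ± 0.107 in gun1 and 0.244 ± 0.0438 in WT (SD, n = 8 each), with a log2 difference of -0.08 (SE 0.23, adjusted p = 0.829 in limma). Its mutant samples spread more widely, from 0.125 to 0.443, around the WT range of 0.195 to 0.308. AT2G04700, from the list of thioredoxins, their reductases and the ferredoxin chain, averaged 0.492 ± 0.129 in gun1 and 0.512 ± 0.0916 in WT (SD, n = 8 each; log2 difference -0.08, SE 0.17, adjusted p = 0.772 in limma). AT3G47650, from the same list as AT5G55220, averaged 1.06 ± 0.330 in gun1 and 0.932 ± 0.208 in WT (SD, n = 8 each; log2 difference 0.15, SE 0.21, adjusted p = 0.625 in limma). With a common median, AT2G04700 (log2 difference -0.54, adjusted p = 0.0161) and AT3G47650 (-0.56, adjusted p = 0.0216) were called lower in gun1, so neither has a direction independent of the scaling.

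**Figure D5:**
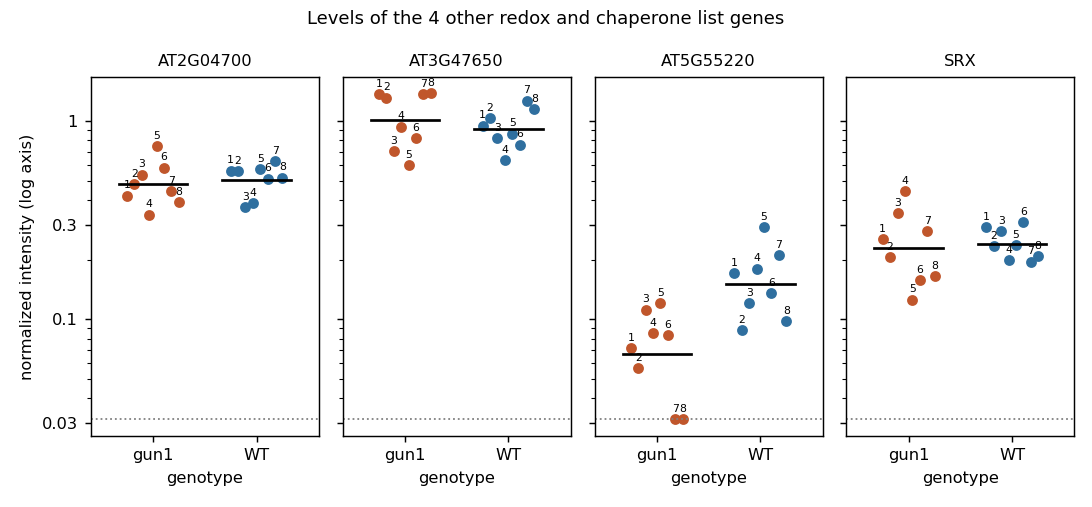
Quantile-normalized intensity (log axis, scale of 0 to 100) of the 4 other listed redox and chaperone genes in 8 gun1 and 8 WT samples, with sample numbers, geometric means as bars and the floor of 0.0313 as a dotted line. For AT5G55220, 6 of 8 gun1 samples lie below every WT sample, and for AT2G04700, AT3G47650 and SRX the genotypes overlap.

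After the mean of each genotype was subtracted, the 5 genes had weak or moderate correlations with each other over the 16 samples, from -0.483 between AT3G52960 and CCS to 0.362 between NTRC and Cpn60beta4. Cpn60beta3 and Cpn60beta4 had an r of -0.256. By the same measure, the 3 genes with the highest Pearson correlation to each member were picked from 571 other genes with their own probe. As the highest of so many, and between samples that share numbers, the correlations are a description with no p-value. For AT3G52960 they were AT3G19120 (r = 0.827), AT5G46390 (0.793) and AT5G40070 (0.737). For NTRC they were AT4G17650 (0.675), AT1G64510 (0.660) and AT5G59400 (0.651). CCS was closest to AT5G47030 (0.786), SIRB (0.770) and AT2G35390 (0.756). Cpn60beta3 was closest to AT5G63290 (0.841), NdhS (0.792) and AT2G22050 (0.759), and Cpn60beta4 to AT4G25290 (0.695), AT5G17280 (0.688) and AT2G41950 (0.683). No member was among the 3 closest genes of another. The differences between genotypes of such genes could be opposite: AT3G19120, the closest to AT3G52960, had a log2 difference of -0.65, against 1.02 for AT3G52960 itself.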

How the data were processed

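RNA of 8 gun1 and 8 WT samples was measured on arrays with 1 channel per sample. Each deposited column holds linear intensities between 0 and 100. How the authors made them, from background correction to scaling, is not given in the sources used here, and the number of arrays limits the precision. Titles gave the groups.

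Quantile normalization used limma 3.58.1 under R 4.3.3. Zeros, and values below the 5th percentile of the positive values (0.0313), were set to that floor, and log2 was taken. Left out were 20 probes constant in all 16 samples, 18 at the floor and 2 at 100, which left 3419. Each was tested with limma's lmFit and eBayes, gun1 minus WT, two-sided, Benjamini-Hochberg adjusted over all of them at 0.05. Folds are ratios of geometric means and depend on the floor where a sample lies there. Intervals for depth do not apply to intensities. The limma fit alone was tried on simulated log2 values, drawn independently for each sample. That simulation did not pass through the normalization or the floor and held no correlation between samples, so it does not test these.

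The platform's annotation lists 1 gene for 692 probes, several for 870 and none for 1877. By gene number, 690 of the 692 matched the RefSeq table of assembly TAIR10.1, used for names only. Name patterns for the lists were searched in symbols and synonyms. The members and lists were chosen with earlier results of these data known. Named are the 5 members, every listed gene with its own probe that was called or was among the 10 largest not called, and the 3 genes most like each member, among probes at the floor in at most 4 samples. Alternatives covered scaling, floor, a filter on dim probes (above the floor in at least 8 samples), the replicate number as a block, consecutive numbers, the variance model and leaving out samples. Leaving out numbers 7 and 8 was chosen after seeing the data, as were the alternatives for the 4 other listed genes. Plots used matplotlib 3.10.9.

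Same-numbered samples were treated as pairs in the differences by number and in the alternative with the replicate number as a block. The main fit, with the SEs and p-values printed from it, did not use the pairs. With the block, the SE of AT3G52960 was 0.15 in place of 0.22. Across probes, the deviations of gun1 and WT samples from their group means correlated at r from 0.143 to 0.421 within the 8 numbers, and at -0.0338 on average between numbers. The labels state no pairing, so it rests on these correlations.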

Additional observations from a re-analysis of the deposited data

How the results depend on the processing

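Over 27 alternatives, AT3G52960 kept its direction and its call, and Cpn60beta3 its direction. For Cpn60beta3 these include the log2 difference without scaling, -0.20 with an SE of 0.41. The alternatives share most of their samples, and 16 of them leave out a single sample, so they are not separate tests. As the genes were chosen with this contrast known, the kept calls are a description. The count of called probes was 1088, against 592 with consecutive numbers averaged, 733 when they formed a random block and 996 to 1065 when a sample was left out. With the replicate number as a block, 1293 were called and no call changed among the 5 members or the 4 other listed genes. The share of calls higher in gun1 was 52.1%, against 85.5% without scaling and 34.2% with a common median. Of all tested probes, 31.8% were called in the main fit, 41.7% without scaling, 45.3% with a common median and 31.7% under cyclic loess. The share was 34.4% with the floor at the 20th percentile, 17.3% with consecutive numbers averaged and 29.1% to 31.1% with a sample left out. The count of members called was 2 in place of 1 without scaling, under cyclic loess and with the floor at the 20th percentile, and 1 to 2 when a sample was left out. Without scaling the log2 difference was 1.44 for AT3G52960, 0.44 for NTRC and 0.38 for Cpn60beta4. Of the 4 other listed genes, 0 were called without scaling or with consecutive numbers averaged and 3 with a common median, against 1. Their direction turned for AT2G04700 without scaling (0.19), under cyclic loess (0.034) and with numbers 7 and 8 left out (0.050), for AT3G47650 with a common median (-0.56) and for SRX without scaling (0.56) and without gun1 replicate 5 (0.044), where leaving out single samples gave -0.22 to 0.044. The causes were not tested. The redox minus chaperonin value stayed above 0 in its 15 alternatives, from 0.55 to 1.12. Samples at the floor were 1 for Cpn60beta3 and 2 for AT5G55220, so the size of these differences depends on the floor. The Cpn60beta3 sample was deposited at 0. Those of AT5G55220, gun1 replicates 7 and 8, were deposited at 0.0135 and 0.0620 and were set to the floor after normalization.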
